A study of Mus musculus with 4 samples.

Results

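The genes described here are the estrogen receptors and a small set of steroid enzymes and estrogen-linked genes: Esr1, Esr2, Gper, Pgr, Hsd17b4, Hsd17b12, Srd5a1, Star, Nrip1 and Greb1. They were chosen by symbol, as 10 of the 22609 genes counted; 9 were listed under that symbol, and Gper was listed under its older symbol Gpr30. RNA sequencing was done on the hippocampus of female mice whose ovaries had been removed 1 week before surgery. All mice had both common carotid arteries closed for 20 min (global cerebral ischemia, a model of the blood flow loss of cardiac arrest) and 24 h of reperfusion. The FLOX-control group (2 libraries) carries the floxed aromatase gene Cyp19a1 without deletion. In the GFAP-ARO-KO group (2 libraries), Cre driven by the Gfap promoter removes Cyp19a1 in astrocytes; aromatase of other cells, neurons included, is not targeted. There was no group without ischemia, and estrogen was not measured. Ages and the number of animals behind each library were not stated.

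Aromatase makes estradiol and estrone from androgens. Estradiol acts through the nuclear receptors that Esr1 and Esr2 encode, which bind DNA and switch on genes such as Pgr and Greb1 in reproductive tissue, and through the membrane receptor that Gper encodes. Enzymes of the 17-beta-hydroxysteroid dehydrogenase family interconvert weaker and stronger estrogens, while 5-alpha reductase uses testosterone, the substrate it shares with aromatase. The comparison asked how these genes differ between mice with and without astrocyte aromatase when the ovaries, the main outside source of estrogen, are gone.

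The libraries held 27930696 to 34878375 reads assigned to genes. Libraries of the same genotype differed beyond counting noise (chi-square over its degrees of freedom 13.8 for FLOX-control and 26 for GFAP-ARO-KO), so each was counted as 1 sample. Nothing says that they came from separate animals, so p-values measure only the spread between these libraries, which may be technical. Of the listed markers of hippocampal excitatory neurons, 6 of 6 were tested. They summed to 7790 and 8480 CPM (read counts scaled to the TMM-adjusted library total) in FLOX-control and to 7120 and 6980 CPM in GFAP-ARO-KO. Most of these sums was Camk2a (4950 and 5650 against 4670 and 4660 CPM) and Slc17a7 (2120 and 2020 against 1810 and 1610 CPM). The sums alone therefore do not identify the tissue as hippocampus. Within that list Prox1, of dentate granule cells, rose by 0.63 on the log2 scale (edgeR adjusted p = 0.00961) and Neurod6 fell by 0.67 (0.0275). The second knockout library stood apart in 7 markers of meninges, which summed to 439 CPM there against 101 to 146 CPM in the other libraries. The 6 markers of microglia all fell, from 307 and 341 CPM to 155 and 148 CPM in sum. Of 6 astrocyte markers 2 fell, Gfap (by 0.94 on the log2 scale, edgeR adjusted p = 0.00151) and Aqp4 (by 1.40, 0.00364), and 4 did not pass, with list sums of 5250 and 5550 CPM in FLOX-control and 4160 and 4390 CPM in GFAP-ARO-KO. Of 5 oligodendrocyte markers 3 fell, with sums of 3900 and 3660 against 3280 and 3490 CPM. Of 5 tested choroid plexus markers Ttr and Clic6 rose (by 1.93 and 1.42, edgeR adjusted p = 0.0415 and 0.0311), and 6 markers summed to 34.3 and 36.7 against 49.4 and 66.6 CPM. The thalamus list summed to 163 and 164 CPM in FLOX-control against 74 and 96.8 CPM. Its glutamate transporter gene Slc17a6 was at 117 and 111 CPM against 11.1 and 19.7 CPM (edgeR adjusted p = 0.00177), while Prkcd of the same list rose by 0.74 (0.0284). The other 3 of 5, Tcf7l2, Plekhg1 and Rora, did not pass, at log2 fold changes of -0.01, 0.33 and 0.17. The lower sum of the thalamus list thus came from Slc17a6 alone. The hypothalamus list held 8 markers of a region rich in estrogen receptors. Its defining peptide genes Pmch, Hcrt, Avp, Oxt and Agrp gave 0 to 9 reads in any library, too few for a test. Avp gave 2 and 0 reads in FLOX-control against 6 and 9 in GFAP-ARO-KO. In the same order Pmch gave 3 and 5 against 4 and 8, and Hcrt 2 and 0 against 2 and 5. Oxt gave 2 and 1 against 3 and 0, and Agrp 4 and 0 against 1 and 1. The list summed to 21.4 and 14.4 CPM in FLOX-control and to 2.73 and 2.52 CPM in GFAP-ARO-KO, since Trh and Gal, peptide genes also used outside the hypothalamus, fell (edgeR adjusted p = 0.00136 and 0.021). Nkx2-1 of the hypothalamus list gave 12 and 11 reads in FLOX-control and 6 and 4 reads in GFAP-ARO-KO. Its log2 fold change of -1.12 did not pass (edgeR adjusted p = 0.201). Nkx2-1 met the read filter only through its FLOX-control libraries, which favored a lower knockout value. Its sign therefore adds nothing to the values of Trh and Gal. The part of these cell types in the results was not tested.

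Cyp19a1, the targeted gene, gave 3 and 2 reads in FLOX-control and 1 and 9 reads in GFAP-ARO-KO, which is too little for a test or for a check of the genotype labels. Over both libraries of each group the knockout level was 2.09 times the control level, with a 95% counting interval from 0.651 to 7.79. That interval leaves out the spread between libraries, and most of the knockout reads came from the second library.

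Promoter sequence is shown for the gene with the widest gap between genotypes and for Greb1, an estrogen-induced gene. The Greb1 window was chosen because it alone among the windows of the set held the core of an estrogen receptor site. The window of Pgr held 0 such cores and is not shown. Windows from 250 bases before to 50 bases after the start site came from RefSeq (build GRCm38.p6) and covered 8 of the 10 genes with 11 windows. The first is the window of Srd5a1 (chr13:69611414-69611713, minus strand, 300 bases), with 4 GC boxes (GGGCGG, searched on both strands) in capitals. The second is a stretch of 86 bases of the Greb1 window (chr12:16800929-16801014, minus strand), with the core of an estrogen receptor site, AGGTCA, in capitals as it reads from the other strand. Both are written 5′ to 3′ on the strand of the gene.
Srd5a1: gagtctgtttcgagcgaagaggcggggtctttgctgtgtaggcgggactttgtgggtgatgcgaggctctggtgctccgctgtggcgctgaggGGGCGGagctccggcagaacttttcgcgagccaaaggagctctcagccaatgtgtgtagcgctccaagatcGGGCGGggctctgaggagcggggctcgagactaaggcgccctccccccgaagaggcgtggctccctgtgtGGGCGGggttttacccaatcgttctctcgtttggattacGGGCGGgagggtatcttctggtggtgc
Greb1: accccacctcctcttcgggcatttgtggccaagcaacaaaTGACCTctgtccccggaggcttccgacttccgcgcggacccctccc

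The full estrogen response element GGTCANNNTGACC, searched on both strands, was in 0 of the 11 windows and in 0.07% of all 32851 promoter windows of the same length. At that share a match in 11 windows was unlikely from the start, so the 0 says little about these genes. Sites outside the windows and imperfect sites were not searched. Its core AGGTCA was in 1 of the 11, a window of Greb1, against 16.3% of all windows. The site of the steroid synthesis regulator NR5A1, CAAGGTCA, which contains that core, was in 0 of the 11 and in 1.56% of all windows. The cAMP response element TGACGTCA was in 0 of the 11 and in 1.79% of all windows. GC boxes were in 5 of the 11 windows, those of 5 different genes, against 35.7% of all windows. In RefSeq (build GRCm38.p6) the start site of Srd5a1 lies 553 bases from that of Nsun2, an RNA methyltransferase gene that reads in the opposite direction. The GENCODE vM1 annotation of mm9 differs. There Nsun2 runs from 69672624 to 69774658, a span that holds all of Srd5a1.

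The genes spanned a wide range of levels. Levels of different genes are compared as CPM per kb of merged exons, from the GENCODE vM1 annotation of mm9. Hsd17b12 was highest, at 30.9 to 37.4 CPM per kb in the 4 libraries, above 87.9% of 14641 tested genes with a known length. Hsd17b4 followed at 16.4 to 20.5 CPM per kb, and the level of Hsd17b12 was 1.61 to 2.05 times that of Hsd17b4 within a library. Pgr (2.69 to 3.72), Nrip1 (2.65 to 3.38) and Srd5a1 (1.69 to 3.86 CPM per kb) came next, and their ranges overlapped. Gper ran from 1.15 to 1.33 and Star from 0.452 to 0.498 CPM per kb. Esr1 ran from 0.17 to 0.235 CPM per kb, at or above 4.78% of tested genes. Greb1 (0.0415 to 0.074) and Esr2 (0.0182 to 0.0532 CPM per kb) were lowest, and their ranges overlapped. Divided by the longest annotated transcript instead of merged exons, 8 of the 10 kept their rank. Pgr and Nrip1 changed places (mean 3.92 and 4.51 CPM per kb), and the mean of Esr1 rose from 0.196 to 0.424 CPM per kb without a change of rank.

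**Figure D1:**
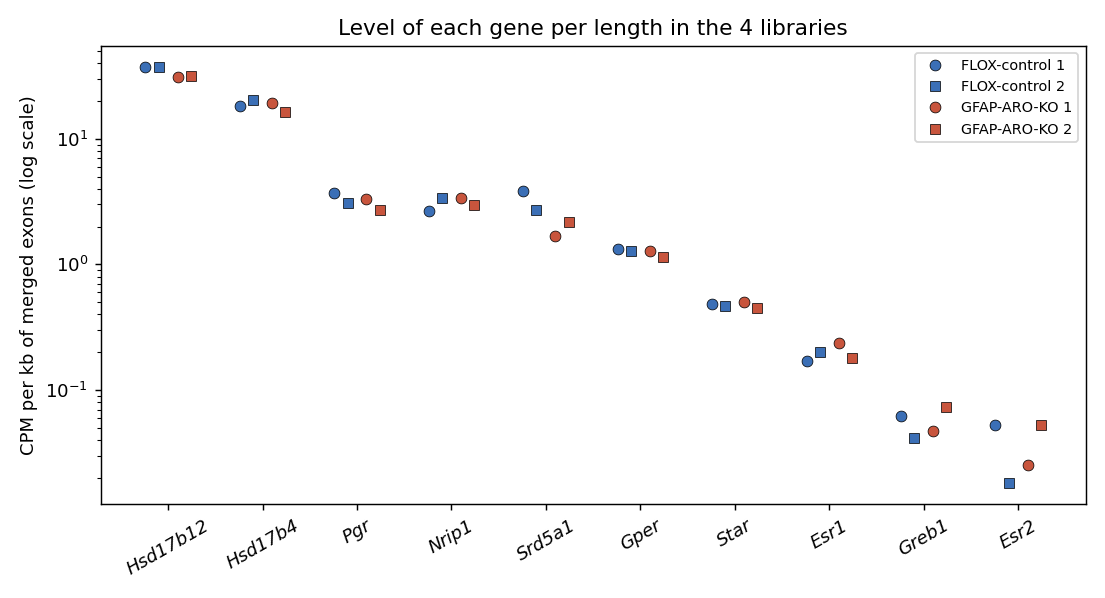
Level per length of the 10 genes in each library, in CPM per kb of merged exons on a log scale. Circles and squares are the first and second library of each group, blue for FLOX-control and red for GFAP-ARO-KO. Hsd17b12 at 30.9 to 37.4 and Esr2 at 0.0182 to 0.0532 CPM per kb mark the ends of the range, and Srd5a1 is split by genotype, with both knockout values under both control values.

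No gene of the set passed the test. By edgeR's quasi-likelihood test, 0 of the 9 genes it could test reached an adjusted p (Benjamini-Hochberg) under 0.05, where 20.4% of all 15011 tested genes did. Limma-voom called 0, against 19.3% of all genes, and DESeq2 called 1, Srd5a1, against 21.3%. At an unadjusted p under 0.05 there were 2, Srd5a1 and Hsd17b12, against 36.5% of all tested genes. The same 2 genes were the ones whose libraries did not overlap between genotypes, against 64.8% of all tested genes. The median log2 fold change of knockout over control was -0.09 over the 9 genes and 0.00 over all tested genes, and the median size regardless of sign was 0.17 against 0.28. Esr2 was not tested because its counts were too low. In bulk tissue, fewer cells of a type and less RNA per cell cannot be told apart.

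**Figure D2:**
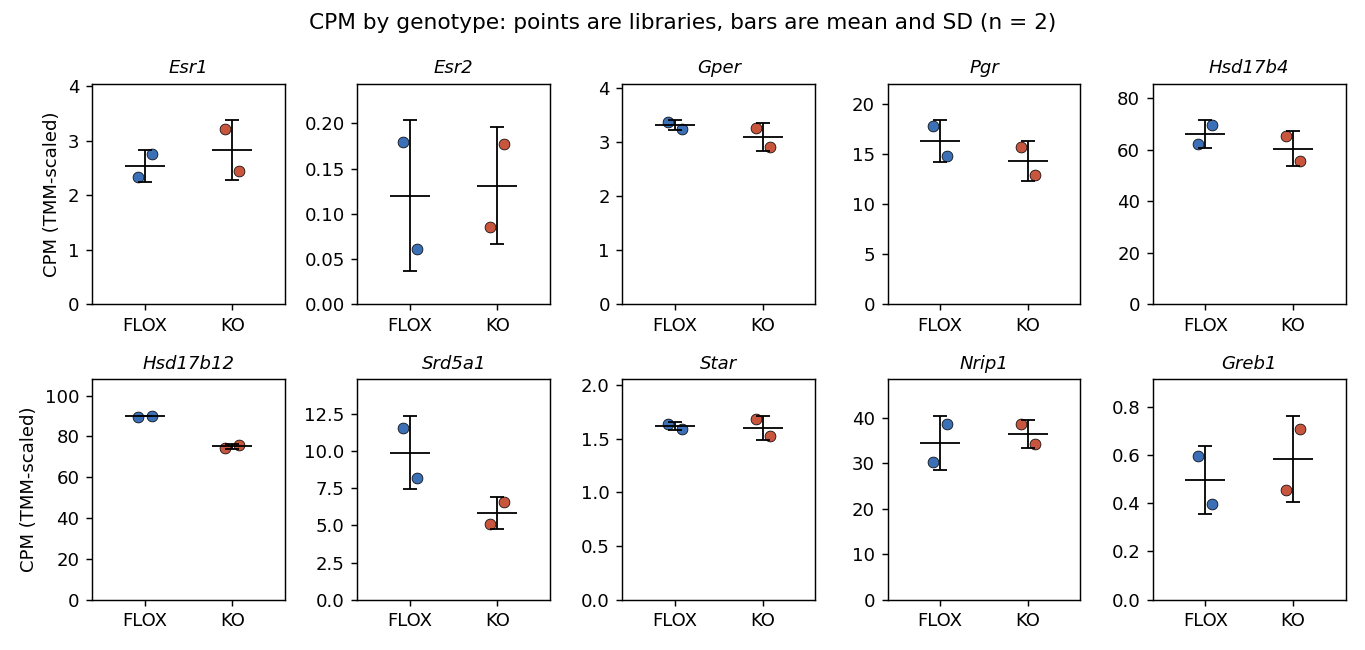
CPM of each of the 10 genes by genotype, each panel on its own linear axis from 0. Points are libraries, and bars are mean and SD (n = 2). Both knockout points lie below both control points for Hsd17b12 and Srd5a1, and the groups overlap in the other 8 panels.

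Srd5a1 had the widest difference of the set. It encodes steroid 5-alpha reductase type 1, which makes dihydrotestosterone from testosterone and takes the first step from progesterone to the neurosteroid allopregnanolone. The gene lies on mm9 chromosome 13 (69712327 to 69750320, minus strand) and gave 390 and 267 reads in FLOX-control and 179 and 186 reads in GFAP-ARO-KO. These are 11.6 and 8.17 CPM in FLOX-control against 5.1 and 6.59 CPM in GFAP-ARO-KO. Both knockout libraries were below both controls, and the control libraries stood further apart from each other than the knockouts did. Means were 9.91 ± 2.46 and 5.85 ± 1.06 CPM (SD, n = 2 each). The log2 fold change was -0.77 ± 0.24 (SE), with a 95% interval from -1.32 to -0.22, which is a level in the knockout of 0.585 times the control (0.4 to 0.856). It did not pass (edgeR adjusted p = 0.0552, unadjusted p = 0.012). Which libraries were kept decided its size: the log2 fold change was -0.48 without the first control (adjusted p = 0.363), -1.0 without the second (0.0748), -0.59 without the first knockout (0.105) and -0.95 without the second (0.0428). With DESeq2 it passed (log2 fold change -0.76, adjusted p = 0.0413).

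In the GENCODE vM1 annotation of mm9, the span of Srd5a1 lies inside that of Nsun2 on the opposite strand, with 0 shared exon bases. Srd5a1 shares 476 exon bases with the transcript Gm17108, which is not among the counted genes. Gm17108 is on the same strand as Srd5a1, so its reads could be counted for Srd5a1 whatever the strand setting. How the counting treated strand was not stated. With 0 shared exon bases, only reads from outside the annotated Nsun2 exons could be mixed in from that gene. Nsun2 gave 117 and 107 CPM in FLOX-control and 101 and 100 CPM in GFAP-ARO-KO. Its log2 fold change was -0.16 ± 0.10 (edgeR adjusted p = 0.284), and the difference between the pair was not tested. Of the 50-base windows of Srd5a1 exons, 98.5% matched a single place in the genome, the lowest share of the set. In 6 other genes the share was 100% and in Esr1, Esr2 and Greb1 it ran from 98.76% to 99.69%.

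Hsd17b12, which encodes an enzyme of fatty acid elongation that can also turn estrone into estradiol, was the most abundant gene of the set. It lies on mm9 chromosome 2 (93872846 to 93998121, minus strand) and gave 3008 and 2941 reads in FLOX-control and 2610 and 2139 reads in GFAP-ARO-KO. FLOX-control was at 89.8 and 90 CPM and GFAP-ARO-KO at 74.3 and 75.8 CPM, so the libraries of each group lay close together and the groups did not overlap. The log2 fold change was -0.26 ± 0.09, with a 95% interval from -0.48 to -0.04, and did not pass (edgeR adjusted p = 0.0879). Over 13 alternative fits it stayed between -0.26 and -0.24 and passed in 0, with adjusted p from 0.0835 to 0.349.

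**Figure D3:**
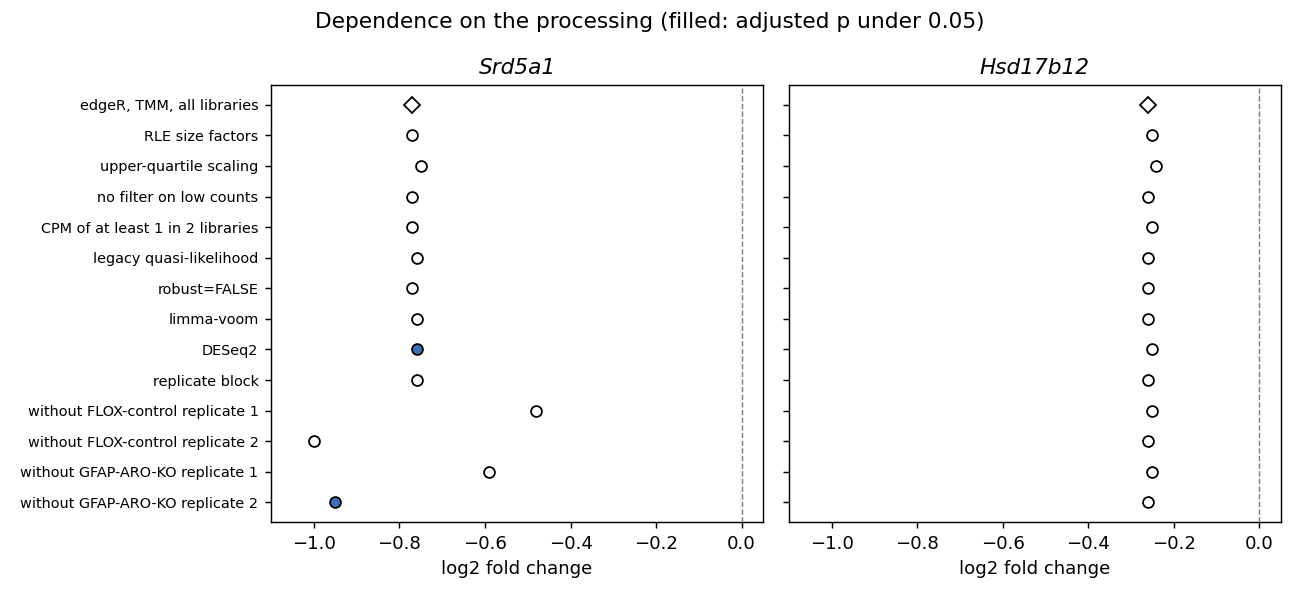
Log2 fold change of Srd5a1 and Hsd17b12 (knockout over control) under each processing alternative; the diamond is edgeR with all libraries, and filled symbols have an adjusted p under 0.05. Srd5a1 moves between -1.0 and -0.48 with the library left out and is filled with DESeq2 and without the second knockout library, while Hsd17b12 stays between -0.26 and -0.24.

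Hsd17b4 encodes a peroxisomal enzyme of fatty acid breakdown that also oxidizes estradiol to estrone, the reverse of the step above. It lies on mm9 chromosome 18 (50287855 to 50355923, plus strand) and was at 62.1 and 69.8 CPM in FLOX-control and at 65.2 and 55.8 CPM in GFAP-ARO-KO. The groups overlapped. Its log2 fold change of -0.12 ± 0.12 had a 95% interval from -0.40 to 0.16 (edgeR adjusted p = 0.493). Star, whose product carries cholesterol into mitochondria for the first step of steroid synthesis, gave 55 and 52 reads in FLOX-control and 59 and 43 reads in GFAP-ARO-KO. That is 1.64 and 1.59 CPM against 1.68 and 1.52 CPM, with both control values between the knockout values. Its log2 fold change was -0.01 ± 0.28 (95% interval -0.65 to 0.64, edgeR adjusted p = 0.989), and the sign turned with upper-quartile scaling (0.02), without the first control (0.02) and without the second knockout library (0.07). At this depth a change of 1.56-fold up or to 0.636 times the control would lie inside the interval.

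Among the receptors, Esr1, which encodes estrogen receptor alpha (mm9 chromosome 10, 5340927 to 5734948, minus strand), gave 78 and 90 reads in FLOX-control and 113 and 69 in GFAP-ARO-KO. The values of 2.33 and 2.75 CPM in FLOX-control and 3.22 and 2.45 CPM in GFAP-ARO-KO overlapped, and the first knockout library was highest. The log2 fold change was 0.17 ± 0.26 (95% interval -0.43 to 0.78, edgeR adjusted p = 0.669) and was -0.05 without that library. Esr2, which encodes estrogen receptor beta (mm9 chromosome 12, 77221406 to 77278246, minus strand), gave 6 and 2 reads in FLOX-control and 3 and 5 in GFAP-ARO-KO. Both groups summed to 8 reads, a ratio of 1.05 with a 95% counting interval from 0.342 to 3.19. Ratios inside that interval are not excluded by these counts.

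Gper, which encodes the G protein-coupled estrogen receptor (mm9 chromosome 5, 139899105 to 139903754, plus strand), gave 113 and 106 reads in FLOX-control and 115 and 82 in GFAP-ARO-KO. The levels of 3.37 and 3.24 CPM against 3.27 and 2.91 CPM overlapped, and the second knockout library was lowest. Its log2 fold change was -0.09 ± 0.22 (95% interval -0.61 to 0.43, edgeR adjusted p = 0.799). The gene lies inside the span of 3110082I17Rik on the opposite strand, with 0 shared exon bases, which did not pass the test (log2 fold change 0.20 ± 0.15, edgeR adjusted p = 0.385).

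Pgr, the progesterone receptor gene and a classical target of estrogen receptor alpha, was the most abundant receptor of the set per length. Within a library its level per length was 14 to 21.8 times that of Esr1 by merged exons, and 7.93 to 12.4 times by the longest transcripts. It lies on mm9 chromosome 9 (8900419 to 8965425, plus strand) and was at 17.8 and 14.8 CPM in FLOX-control and at 15.7 and 12.9 CPM in GFAP-ARO-KO, so the groups overlapped. The log2 fold change was -0.19 ± 0.17 (95% interval -0.57 to 0.20, edgeR adjusted p = 0.456) and ran from -0.34 to -0.04 over the alternatives, negative in all 13.

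Greb1, named for its induction by estrogen in breast cancer cells, where it binds the receptor as a cofactor, gave 20 and 13 reads in FLOX-control and 16 and 20 in GFAP-ARO-KO. It lies on mm9 chromosome 12 (16677421 to 16807692, minus strand), and the core motif printed above is upstream of its start site. The log2 fold change of 0.19 ± 0.47 had a 95% interval from -0.89 to 1.27 (edgeR adjusted p = 0.799). It was -0.07 without the second control and -0.12 without the second knockout library. Nrip1 encodes a corepressor that binds estrogen receptors carrying hormone and is itself induced by estrogen in breast cancer cells. It lies on mm9 chromosome 16 (76287645 to 76374072, minus strand) and was at 30.3 and 38.7 CPM in FLOX-control and 38.6 and 34.2 CPM in GFAP-ARO-KO, with both knockout values between the controls. Its log2 fold change was 0.08 ± 0.15 (95% interval -0.27 to 0.42, edgeR adjusted p = 0.743), and it was -0.08 without the first control and -0.01 without the first knockout library.

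The other genes of the pathway came from 5 lists of receptors, synthesis, conversion, coregulators and estrogen-induced genes. Of 63 such genes tested, 5 rose and 5 fell, against 9.39% of all tested genes that were higher and 11.0% that were lower. The median log2 fold change was -0.05. Without the first control 2 were called (Pelp1 and Hsd3b7), where 5.87% of all genes were. Without the second control 2 were called (Pelp1 and Hsd11b1), where 5.30% of all genes were. Without the first knockout library 18 of 64, or 28.1%, were called, near the 31.5% of all genes. The counts of each list below also include those of the 10 genes that belong to it. The same shares of all tested genes, 9.39% higher and 11.0% lower, stand against each of these counts.

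Of 17 receptor genes tested, the 3 above included, 1 rose and 16 did not pass. Paqr5, a membrane progesterone receptor gene, was at 3.46 and 3.7 CPM in FLOX-control and at 6.64 and 12.1 CPM in GFAP-ARO-KO. It rose by 1.37 ± 0.31 on the log2 scale (edgeR adjusted p = 0.0249), a call lost without the first control (0.124) or the second (0.115), and by 0.90 without the second knockout library (0.022), which was high in meningeal markers. Pgrmc1, a progesterone-binding membrane protein and the most abundant of the list by CPM, did not pass the test (log2 fold change 0.22 ± 0.11, adjusted p = 0.184, and 0.34 with 0.0303 without the first knockout library).

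Of 8 tested genes of cholesterol delivery and early synthesis, Star included, 1 fell and 7 did not pass. Hsd3b7, whose enzyme acts in bile acid synthesis and not on sex steroids, was at 14.3 and 16.7 CPM in FLOX-control and at 8.66 and 5.99 CPM in GFAP-ARO-KO. It fell by 1.07 ± 0.20 (log2, edgeR adjusted p = 0.0134, and 0.0904 without the second control). In the annotation it shares 3523 exon bases with Setd1a on the same strand, so reads of the pair could be mixed or left uncounted. Por, the electron donor of microsomal cytochrome P450 enzymes, aromatase included, did not pass the test (log2 fold change 0.05 ± 0.09, adjusted p = 0.753).

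Of 15 tested genes of estrogen and androgen conversion, with Hsd17b4, Hsd17b12 and Srd5a1 among them, 3 rose and 12 did not pass. Over all tested genes 9.39% were higher. Hsd11b1, which reactivates glucocorticoids, was at 29.4 and 30.4 CPM in FLOX-control and at 47.8 and 50.6 CPM in GFAP-ARO-KO, and rose by 0.72 ± 0.11 (edgeR adjusted p = 0.00616, and 0.0526 without the first control). Srd5a3, a relative of Srd5a1 whose enzyme makes dolichol for protein glycosylation, was at 17.8 and 19.1 CPM in FLOX-control and at 27 and 26.3 CPM in GFAP-ARO-KO. It rose by 0.53 ± 0.12 (edgeR adjusted p = 0.0239, with 0.181 without the first control and 0.131 without the second), so its sign was opposite to that of Srd5a1. Sult2b1, a sulfotransferase of cholesterol and pregnenolone, was at 10.4 and 9.91 CPM against 19.3 and 13.2 CPM. It rose by 0.69 ± 0.20 (edgeR adjusted p = 0.0498), a call kept in 6 of 13 alternatives and lost without the first control (0.176), the second (0.223) or the first knockout (0.108).

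Of 18 tested coregulators of estrogen receptors, Nrip1 included, 1 rose, 2 fell and 15 did not pass. Pelp1, a scaffold that ties estrogen receptors to chromatin and kinase signaling, was at 23 and 25.9 CPM in FLOX-control and at 54 and 44.6 CPM in GFAP-ARO-KO. It rose by 1.01 ± 0.14 (edgeR adjusted p = 0.00439) and passed in all 13 alternatives, at 0.87 to 1.15. Ddx17, an RNA helicase and coactivator, shares 33 exon bases with Kdelr3 and fell by 0.47 ± 0.09 (adjusted p = 0.0135, with 0.0909 without the first control and 0.0867 without the second). Med1, the Mediator subunit that contacts nuclear receptors, fell by 0.48 ± 0.11 (adjusted p = 0.0262), a call lost without the first control (0.0769), the second control (0.208) or the second knockout library (0.0522). Wbp2, a coactivator of estrogen and progesterone receptors and the most abundant of the list by CPM, did not pass the test (log2 fold change 0.04 ± 0.09, adjusted p = 0.778).

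Of 16 tested genes that estrogen induces in reproductive tissue or breast cancer cells, Pgr, Greb1 and Nrip1 included, 2 fell and 14 did not pass. That is near the 11.0% of all tested genes that were lower. The median log2 fold change was -0.19, against 0.00 over all tested genes. Myc, a growth regulator, was at 12 and 10.3 CPM in FLOX-control and at 6.12 and 6.38 CPM in GFAP-ARO-KO, and fell by 0.84 ± 0.17 (edgeR adjusted p = 0.0168, with 0.145 without the first control and 0.0709 without the second). Xbp1, a transcription factor of the unfolded protein response, fell by 0.38 ± 0.10 (adjusted p = 0.0364), a call lost without the first control (0.232), the second control (0.147) or the second knockout library (0.0807). Both genes also respond to many signals other than estrogen. Ctsd, a lysosomal protease gene and the most abundant of the list by CPM, did not pass the test (log2 fold change -0.15 ± 0.10, adjusted p = 0.322). In the annotation Ctsd shares 163 exon bases with 6330512M04Rik.

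**Figure D4:**
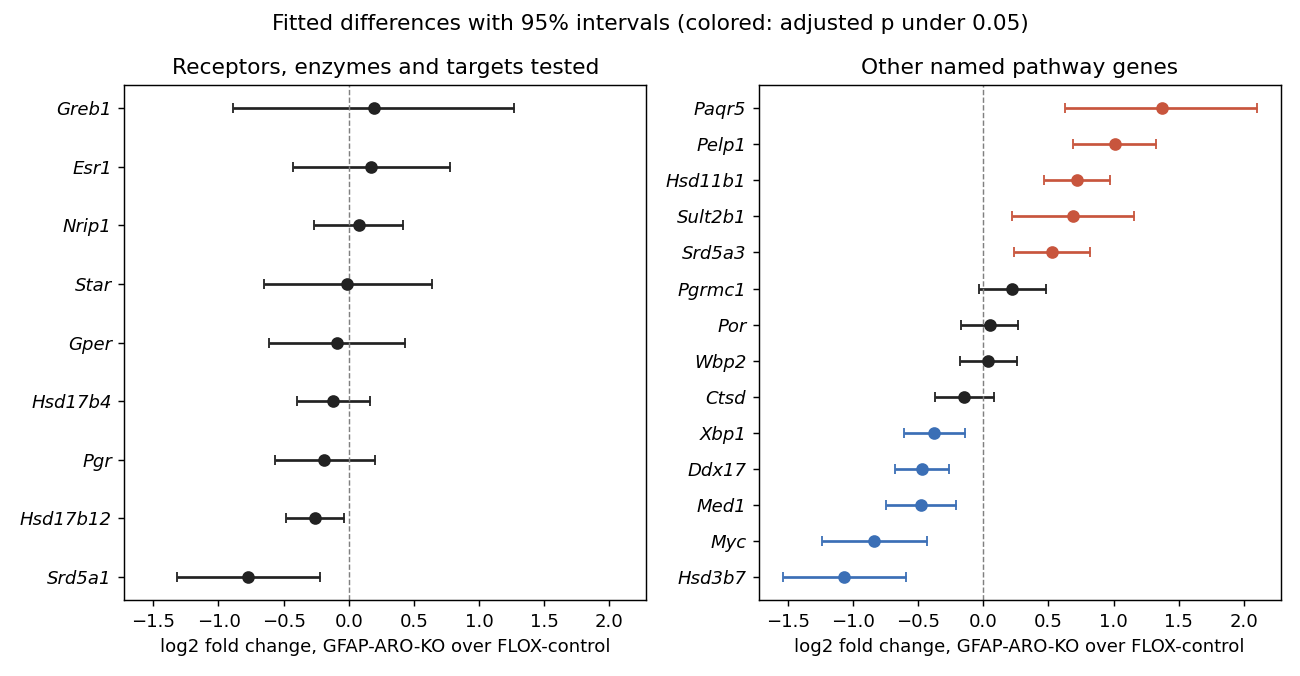
Log2 fold change of knockout over control with 95% intervals from edgeR, for the 9 tested genes of the set (left) and the named genes of the 5 pathway lists (right); red and blue mark higher and lower genes with an adjusted p under 0.05. All points on the left are black, and the intervals of Srd5a1 and Hsd17b12 alone lie on one side of 0 there.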

How the data were processed

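The deposited files hold raw read counts per gene symbol, 1 file per library. Per the submitters' processing notes, TopHat2 2.0.8b, HTSeq and the build mm9 were used; annotation and strand setting were not stated. Rows that name no gene, 5 per file with 45.17% to 47.3% of entries, were left out. Groups and replicate numbers came from sample titles. Genes were filtered with filterByExpr (minimum count 10, minimum total 15), scaled by TMM (factors 0.9837 to 1.01) and tested with edgeR 4.0.16 in R 4.3.3 (glmQLFit, robust, legacy=FALSE; glmQLFTest), with Benjamini-Hochberg adjustment over all tested genes. Standard errors were derived from the F statistic. Counting intervals are exact and cover counting error only. The members and lists were chosen with earlier results of these data known. Besides the members, genes named were Cyp19a1, genes overlapping a member, up to 4 called genes per list by smallest p, and each list's most abundant gene; some items are not reported here. Genes in the closing observations and the cell type markers given with values were named after their values were seen. Alternatives were other scaling, filters and estimation, limma-voom 3.58.1, DESeq2 1.42.0, a replicate block, and each library left out; those of genes outside the set were added after seeing the data. The steps were tested on simulated counts.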

Additional observations from a re-analysis of the deposited data

How the results depend on the processing

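Of 116 alternative values of the 9 tested genes, 106 kept both direction and call, 2 passed the threshold (both Srd5a1) and 8 changed sign. With DESeq2 1 of the 9 genes was called, where 21.3% of all genes were. With a library left out, log2 fold changes that changed sign ran from -0.05 to 0.35 for Esr1, -0.08 to 0.07 for Star, -0.08 to 0.26 for Nrip1, -0.12 to 0.52 for Greb1 and -0.02 to 0.12 for Wbp2. Star was at 0.02 with upper-quartile scaling. The cause was not tested. With a library left out, calls ran from 814 to 4820 over all genes and from 2 to 18 among pathway genes. With upper-quartile scaling 1559 of 3105 calls were higher, against 1409 of 3061. Libraries with the same replicate number showed no shared deviation across genes (correlation -0.0165). With 2 libraries per group this cannot show whether they shared a batch or were paired. With the replicate block 3193 genes, 0 genes of the set and 12 pathway genes were called, and Srd5a1 was at -0.76 (edgeR adjusted p = 0.0512). Greb1 was not tested when a CPM of at least 1 in 2 libraries was required. With no filter on low counts, Esr2 was tested too (log2 fold change 0.07, adjusted p = 0.977). Groups of 2 libraries limit the precision, as do low counts for Esr1 (69 to 113 reads), Star (43 to 59) and Greb1 (13 to 20).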

Other observations

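Cyp1b1, whose enzyme hydroxylates estradiol, was at 3.55 and 3.88 CPM in the controls and at 3.99 and 28.1 CPM in the knockouts. The single high value was in the library with the highest sum of meningeal markers, and the gene did not pass (log2 fold change 2.07 ± 1.08, edgeR adjusted p = 0.26). Stard3, a cholesterol transfer protein related to Star, was at 35.6 and 37.9 CPM in the controls and at 29.4 and 25.5 CPM in the knockouts (log2 fold change -0.42 ± 0.12, adjusted p = 0.051). Tspo, a mitochondrial outer membrane protein that microglia also make, was at 5.52 and 5.87 CPM against 3.7 and 4.25 CPM (-0.52 ± 0.20, adjusted p = 0.102), beside a lower sum of microglial markers in both knockout libraries. Cyp11a1, which makes pregnenolone from cholesterol, was at 1.4 and 0.918 CPM against 1.88 and 1.91 CPM (0.70 ± 0.32, adjusted p = 0.153).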
